A study of Mus musculus with 7 samples.

Results

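Core transcription factors of hematopoietic stem cells (HSCs) were examined as 9 genes taken by name: Gata2, Hlf, Mecom, Meis1, Runx1, Tal1, Lyl1, Lmo2 and Erg. Their probe sets were those that the platform annotation assigned to 1 of these genes and no other. This gave 10 probe sets, 2 for Mecom and 1 for each other gene, of 25335 probe sets with an annotation and 41155 rows in all; the genes are 9 of 22180 named singly. No probe set paired a member with a second gene. The arrays carried cDNA made from RNA of marrow HSCs sorted by the SLAM family of surface receptors after lineage-positive cells were removed. The Ahr-KO group (3 arrays) came from mice with a knockout of Ahr, the gene of the aryl hydrocarbon receptor, a ligand-activated transcription factor. The WT group (4 arrays) came from mice with wild-type Ahr. Both groups were on the C57BL/6J background and were taken at 8 weeks of age, and the series title asks how the knockout affects stem cell expression. The labels do not give the deleted part of Ahr, the cells in which it was lost, the sex of the mice, whether cells were pooled, or whether each array was a separate mouse. The p-values therefore rest on array-to-array spread alone, and that spread may be technical.

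Blood stem cells are held in their state by a small set of transcription factors that bind together at shared regulatory elements, including elements of one another's genes. TAL1 and LYL1 are related basic helix-loop-helix proteins that pair with E proteins to bind E-box letters. LMO2 binds no DNA itself and bridges TAL1 or LYL1 to a GATA factor through the adaptor LDB1. GATA2, the ETS factor ERG and the core-binding factor RUNX1 are often studied together with them. MEIS1 is a homeodomain cofactor of HOX proteins, HLF is a PAR bZIP factor with high activity in stem cells, and MECOM encodes the zinc finger protein EVI1.

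Promoter letters are shown for 4 of the 5 members with a window that matched a motif of the members' own families (the fifth is Mecom); they were chosen for that match. The other windows of these genes, 1 of Tal1, 1 of Runx1 and 2 of Erg, held none. Those shown are the 250 bases before a RefSeq transcript start on build GRCm38.p6, read 5′ to 3′ along the gene. The windows lie at chr4:115056176-115056425 on the plus strand for Tal1, and on the minus strand at chr16:95459349-95459598 for Erg, chr16:92826075-92826324 for Runx1 and chr11:19018970-19019219 for Meis1. Capitals mark matches, on either strand, to 7 motifs. The GATA motif searched was AGATAA. The E-box letters were CAGATG, and separately the palindrome CAGCTG. The ETS motif was AGGAAG, the RUNX motif TGTGGT and the MEIS motif TGACAG. The PAR bZIP motif was TTACGTAA.
Tal1: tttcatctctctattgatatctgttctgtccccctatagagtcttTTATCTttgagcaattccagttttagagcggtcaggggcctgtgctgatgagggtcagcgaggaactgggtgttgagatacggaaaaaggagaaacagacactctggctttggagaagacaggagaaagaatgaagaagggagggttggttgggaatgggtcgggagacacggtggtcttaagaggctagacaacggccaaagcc
Erg: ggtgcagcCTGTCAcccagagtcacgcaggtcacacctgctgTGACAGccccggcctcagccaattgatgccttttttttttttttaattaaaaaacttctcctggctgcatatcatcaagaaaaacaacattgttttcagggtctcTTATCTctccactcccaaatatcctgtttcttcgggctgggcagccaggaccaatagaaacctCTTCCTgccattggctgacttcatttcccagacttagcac
Runx1: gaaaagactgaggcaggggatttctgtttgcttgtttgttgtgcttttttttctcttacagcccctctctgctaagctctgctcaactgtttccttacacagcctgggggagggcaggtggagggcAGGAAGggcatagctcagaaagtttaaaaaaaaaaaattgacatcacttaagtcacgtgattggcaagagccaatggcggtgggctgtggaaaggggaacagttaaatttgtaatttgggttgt
Meis1: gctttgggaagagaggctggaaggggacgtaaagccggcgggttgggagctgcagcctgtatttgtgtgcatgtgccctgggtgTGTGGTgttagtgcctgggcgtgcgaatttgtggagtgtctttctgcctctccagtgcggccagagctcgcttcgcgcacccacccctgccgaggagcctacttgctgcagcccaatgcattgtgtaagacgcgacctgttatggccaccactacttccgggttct

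The Tal1 window shown held AGATAA on the opposite strand, from base -205 to base -200 before the start. The Erg window shown held AGATAA at -103 to -98 and AGGAAG at -40 to -35, both on the opposite strand. It also held TGACAG at -208 to -203, and on the opposite strand at -242 to -237. The Runx1 window shown held AGGAAG at -124 to -119, and the single Meis1 window held TGTGGT at -166 to -161. RefSeq windows were matched for 8 of the 9 genes, 14 windows in all; Lmo2 had no entry. Any of the 7 motifs lay in 6 of the 14 windows, 2 of them of Mecom and none of Gata2, Hlf or Lyl1, against 64.6% of 32851 windows of the same length. AGATAA lay in 2 of the 14 windows and in 9.99% of all windows. AGGAAG lay in 2 and in 29.5%, TGACAG in 2 and in 15.9%, TGTGGT in 1 and in 14.0%, and CAGATG in 1 and in 14.4%. CAGCTG and TTACGTAA lay in none of the 14, and in 13.0% and 0.113% of all windows. These are matches of letters only.

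Intensity was deposited per probe set on a linear scale and was compared as log2(intensity + 1), which understates the fold change of dim probe sets. A background mark was set on each array in place of a detection call, at the 95th percentile of its 1108 probe sets for olfactory receptors (33.8 to 42.8 in intensity). Median intensity ran from 16.9 to 22.1, and 30.7 to 44.9% of tested probe sets lay above the mark. Kit and Cd34, surface genes of stem and progenitor cells, stood above the mark on all 7 arrays. Slamf1, the CD150 gene of the SLAM sort, did so on 4 arrays, namely every Ahr-KO array and WT replicate 4. Cd48, whose protein is a negative marker in SLAM sorting, did so on 5, namely every Ahr-KO array and WT replicates 2 and 3. Of 10 markers of granulocytes and monocytes, 5 stood above the mark on all 7 arrays: Mpo, Prtn3, Ctsg, Elane and S100a9. The others did not: Ltf and Camp were above it on 3 arrays, Ngp on 4, S100a8 on 6 and Ly6g on none. The summed intensity of all 10 ran from 5424 to 15528 in Ahr-KO and from 799 to 16930 in WT. For bulk RNA, fewer cells of a type and less RNA per cell cannot be told apart.

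No member passed an adjusted p of 0.05 in the limma fit over all 25335 probe sets, where 0 probe sets (0%) were called. At an unadjusted p under 0.05 stood 1 of the 10 member probe sets, against 1067 probe sets or 4.21% of all. That probe set, of Lmo2, was also the single member with no overlap of the genotypes. Such separation occurred in 5.74% of all probe sets, and in 2.61% with every Ahr-KO array higher, so 1 of 10 members is near the background. Differences were below 0 for 7 member probe sets and above 0 for 3, with a median of -0.29 against -0.03 over all probe sets tested. The split of directions was not stable: without WT replicate 1 it was 4 below and 6 above.

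**Figure D1:**
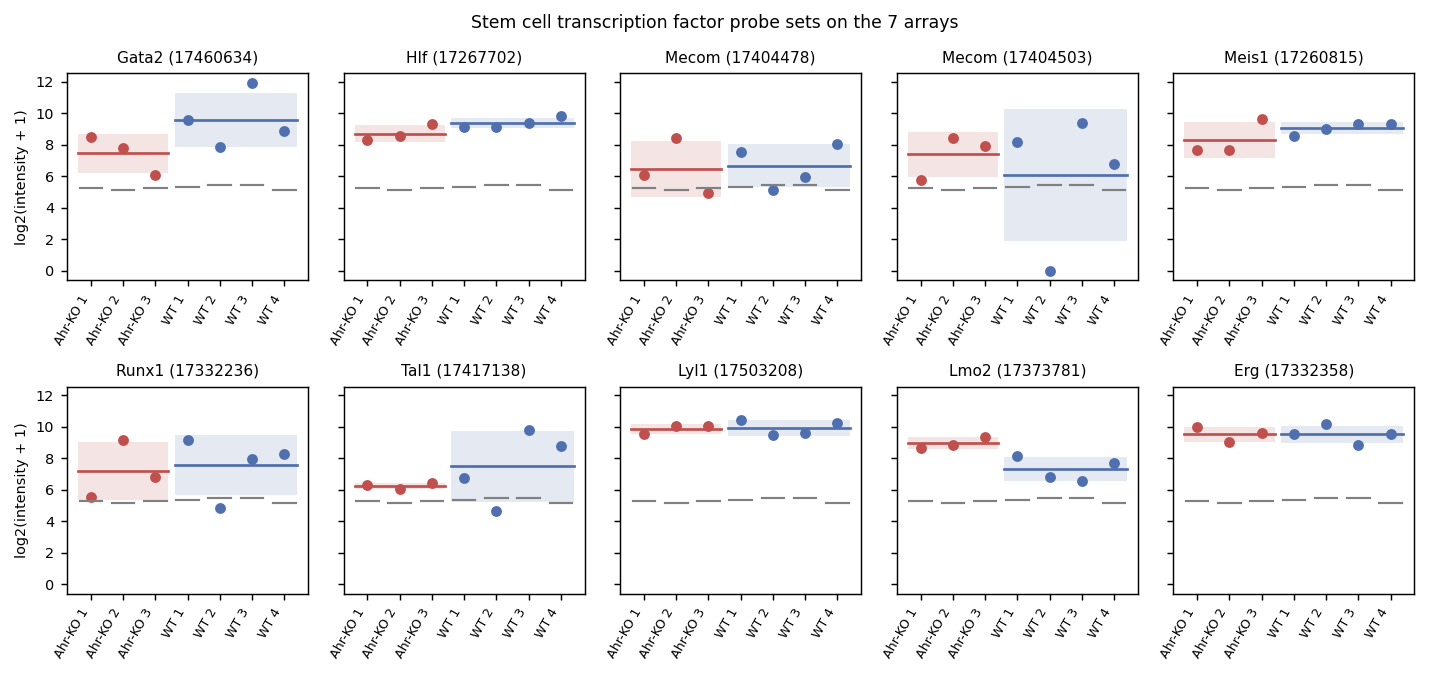
Log2(intensity + 1) of the 10 member probe sets on each array (red, Ahr-KO; blue, WT), with group means as lines, 1 SD as shading and the array's olfactory receptor mark as a grey dash. Lmo2 is the panel in which the 3 Ahr-KO points lie above all 4 WT points; the Mecom point at 0 is WT replicate 2.

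Lmo2, the bridging subunit, had higher values on every Ahr-KO array (probe set 17373781). The Ahr-KO intensities were 404, 459 and 654, beside 284, 112, 92.3 and 205 for the wild type. The lowest Ahr-KO array therefore stood above the highest WT array, WT replicate 1, and every value was above the background mark. Mean intensity was 506 ± 131 (SD, n = 3) against 173 ± 88.4 (SD, n = 4). The log2 difference was 1.65 ± 0.54 (SE), a 3.15-fold ratio, with a 95% interval of 0.40 to 2.91 and a limma adjusted p of 0.963. An exact permutation test of the log2 means over the 35 ways to divide the arrays returned p = 0.0571 (two-sided; 0.0286 is the least this design allows). The difference was above 0 under 15 of 15 alternatives, from 1.40 without WT replicate 3 to 1.94 without WT replicate 1. Most of these could not turn the sign. With no overlap of the genotypes, leaving out any single array cannot do so. The filter, all rows and the trended prior do not change the difference. The limma adjusted p ran from 0.908 to 0.996 over the 15 alternatives. Without Ahr-KO replicate 3 the difference was 1.45 and no longer under the unadjusted threshold.

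The helix-loop-helix partners of LMO2 did not share that pattern. Lyl1 (probe set 17503208) had intensities of 725, 1035 and 1036 in the knockout, beside 1393, 690, 756 and 1218 in the wild type. The groups overlapped throughout, and the highest array exceeded the lowest 2.02-fold. Its log2 difference was -0.077 ± 0.47 (SE), with an interval of -1.16 to 1.01. Leaving out Ahr-KO replicate 1 turned the sign (0.094), as did leaving out WT replicate 1 (0.097) or WT replicate 4 (0.032).

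Tal1 (probe set 17417138) was even across the knockout, at 76.9, 64.5 and 83.2, and uneven across the wild type, at 104, 24.5, 860 and 428. Log2 SD was 0.19 across knockout arrays against 2.25 across wild-type arrays. WT replicates 3 and 4 were the high arrays, and WT replicate 2 lay below the background mark. On the log2 scale the genotypes differed by -1.23 ± 1.13 (SE; limma adjusted p = 0.963), and by -2.17 without WT replicate 2, the array that lay below Ahr-KO. Without WT replicate 3 it was -0.47, and without WT replicate 4 it was -0.81.

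Gata2 (probe set 17460634), the GATA factor of the stem cell complex, had the lowest fitted difference among the members, -2.11 ± 1.02 (SE). Knockout arrays read 359, 221 and 67.5, while wild-type arrays read 749, 233, 3932 and 477. WT replicate 3 stood far above every other array, the next being 749, and WT replicate 2 fell within the Ahr-KO range. The 95% interval was -4.46 to 0.25 and the limma adjusted p 0.963. Without WT replicate 3 the difference was -1.31, and without Ahr-KO replicate 3 it was -1.42. It stayed below 0 under 15 of 15 alternatives, of which the filter, all rows and the trended prior cannot change it. Gata2 is also transcribed in mast cells and basophils, and 7 markers of those cells were measured. Their summed intensity was 612 to 2615 over the knockout arrays, 113 to 2932 over the wild-type arrays and 1536 on WT replicate 3, where Gata2 was highest. On that array Mcpt8 alone gave 1352 of the sum. Cpa3, Fcer1a, Ms4a2, Gzmb and Hdc lay below its mark of 42.4 there. None of the 7 markers stood above the mark on all 7 arrays, and Gzmb and Hdc did so on none. The part of mast cells and basophils in the Gata2 values was not tested.

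Erg (probe set 17332358) was among the steadiest members and gave nearly the same mean in both genotypes. Knockout intensities of 998, 516 and 757 compare with wild-type intensities of 739, 1121, 457 and 748. WT held both the highest and the lowest array. The log2 difference was 0.0019 ± 0.50 (SE), with an interval of -1.15 to 1.15. That interval gives the differences that the values are compatible with, and is not a limit of detection. Erg is also transcribed in endothelial cells, and 5 of 8 endothelial markers had higher values in Ahr-KO, as did 48.3% of all probe sets tested. Their summed intensity was 611 to 1418 over the knockout arrays and 327 to 767 over the wild-type arrays. Only 1 of 8, Emcn, stood above the mark on all 7 arrays, and it gave 523 of the 881 on Ahr-KO replicate 1. The part of endothelial cells in the Erg values was not tested.

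Runx1 (probe set 17332236), the DNA-binding subunit of core-binding factor, ranged widely within both genotypes. The knockout arrays gave 44.9, 578 and 111, and the wild-type arrays gave 577, 27.1, 240 and 309. Ahr-KO replicate 2 and WT replicate 1 shared the top of the range, and WT replicate 2 lay below the background mark. The fitted log2 difference of -0.38 ± 1.21 (SE) had a limma adjusted p of 0.985. Leaving out Ahr-KO replicate 1 or WT replicate 1 turned it to 0.45 or 0.17, and leaving out Ahr-KO replicate 2 or WT replicate 2 took it to -1.38 or -1.29.

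Meis1 (probe set 17260815) read 198, 199 and 785 on knockout arrays, beside 380, 521, 641 and 647 on wild-type arrays. Ahr-KO replicates 1 and 2 lay below all WT arrays and Ahr-KO replicate 3 above them. The genotypes differed by -0.77 ± 0.61 log2 units (SE; limma adjusted p = 0.963), by -1.42 without Ahr-KO replicate 3 and by -0.44 without either other Ahr-KO array. Hlf (probe set 17267702) showed the same arrangement at its low end, with 310, 370 and 633 for the knockout beside 560, 565, 662 and 900 for the wild type. Its log2 difference was -0.66 ± 0.47 (SE), with an interval of -1.74 to 0.42 and a limma adjusted p of 0.963. With Ahr-KO replicate 3 left out, both genes had all Ahr-KO values below all WT values, as did 6.97% of all probe sets. In either direction 13.2% then separated. That array was the highest knockout array for both genes, and these shares do not allow for choosing an array by the members' values.

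The Mecom probe sets disagreed. Probe set 17404478 read 65.3, 338 and 30.2 on knockout arrays, beside 187, 34.7, 60.1 and 267 on wild-type arrays. Probe set 17404503 read 54.2, 350 and 240 for the knockout, beside 292, 0, 675 and 107 for the wild type. On WT replicate 3 the former was among the lower WT values and the latter the highest of all. Log2 differences were -0.20 ± 1.01 (SE) and 1.30 ± 2.09 (SE), both with limma adjusted p over 0.9 (0.991 and 0.968). The value listed at 0 on WT replicate 2 set the direction of the latter, which was -0.73 without that array and 0.39 with a pseudocount of 16. The former was above 0 with any of 4 arrays left out: Ahr-KO replicate 1 (0.0070) and replicate 3 (0.55), and WT replicate 1 (0.089) and replicate 4 (0.26).

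**Figure D2:**
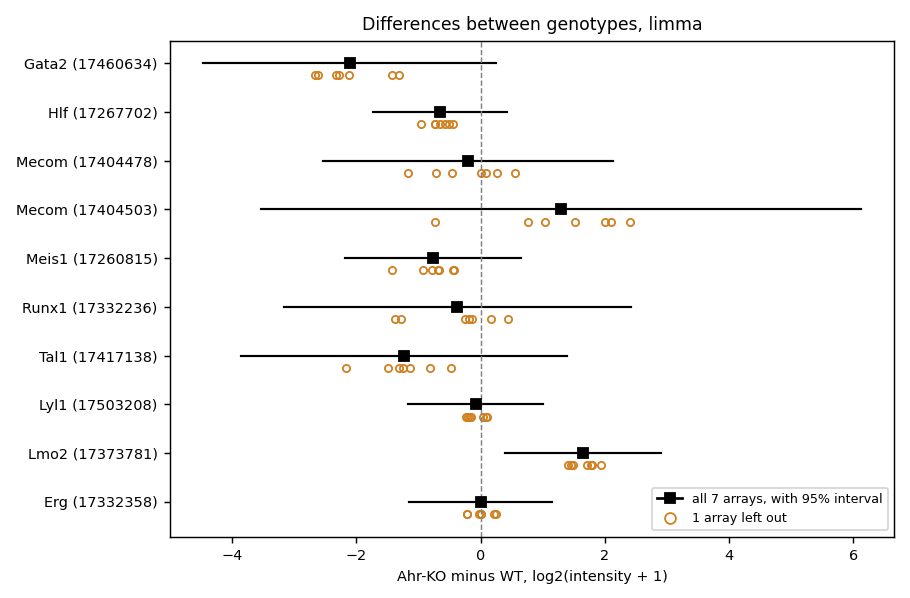
Ahr-KO minus WT on the log2(intensity + 1) scale for each member probe set, with the limma 95% interval (line) and the value with each array left out in turn (open circles). The Lmo2 interval, 0.40 to 2.91, lies wholly above 0, before adjustment for the 25335 probe sets tested; the circles of Mecom, Runx1, Lyl1 and Erg fall on both sides of 0.

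The members differed in their spread between arrays. Residual SD, pooled over both genotypes, was 0.42 log2 units for Hlf, 0.43 for Lyl1, 0.51 for Erg, 0.62 for Lmo2 and 0.77 for Meis1. It was 1.53 and 3.37 for the Mecom probe sets, 1.55 for Gata2, 1.75 for Tal1 and 1.88 for Runx1. The genotypes were not alike in this: log2 SD was 1.14 in the knockout and 0.36 in the wild type for Meis1, the reverse of the order for Tal1. The median residual SD was 1.15 over the 10 member probe sets, 0.93 over all probe sets tested and 0.65 over the 3643 that stood above the mark on all 7 arrays. Of the members, 6 of 10 probe sets stood above it on all 7 arrays, against 14.4% of all tested. Among those 3643, 2.91% had a larger residual SD than Gata2, which was itself above the mark on every array, and 74.8% a larger one than Hlf.

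Across arrays, each gene was set against its own mean over the 7 arrays, with the brighter probe set for Mecom (17404503). WT replicate 2 was the lowest array for 4 of the 9 genes: Mecom, Runx1, Tal1 and Lyl1. Erg was the gene whose highest value fell there. The mean deviation of the 9 genes on that array was -1.44 log2 units, and -0.79 without Mecom, whose deviation was -6.64. WT replicate 3 was the highest array for Gata2, Mecom and Tal1 and the lowest for Lmo2 and Erg. The Mecom entries depend on the probe set. The other one (17404478) was lowest on Ahr-KO replicate 3 (30.2) and highest on Ahr-KO replicate 2 (338). It read 34.7 on WT replicate 2 and 60.1 on WT replicate 3. On WT replicate 4, 8 of 9 genes lay above their own mean, and on Ahr-KO replicate 1, 2 of 9 did (Lmo2 and Erg). The 3643 probe sets above the mark on all arrays had mean deviations between -0.10 and 0.11 on the same arrays. A mean over so many probe sets follows the overall level of an array and is no yardstick for 9 genes. No other set of like size and brightness was compared in this way. Of the 36 pairs of members, 22 had a positive and 14 a negative Pearson r over the 7 arrays (median 0.13), where the points share their array and its preparation.

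**Figure D3:**
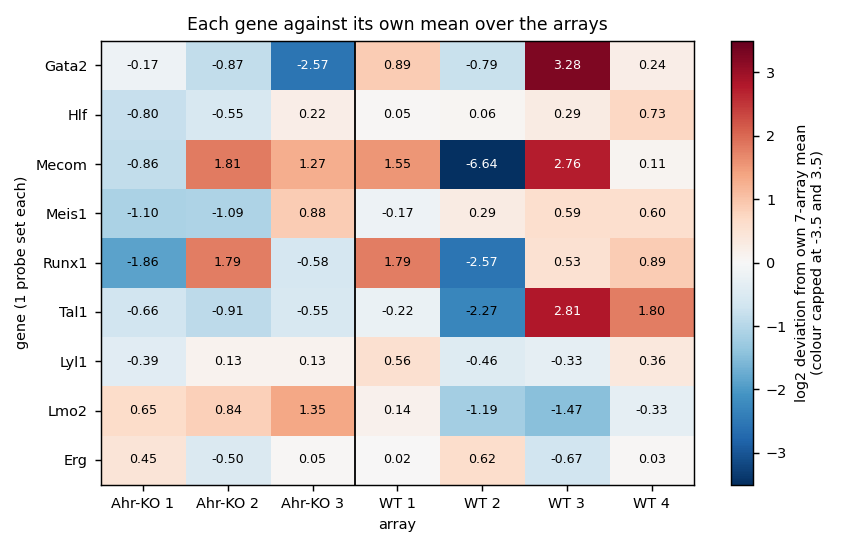
Log2 deviation of each gene from its own mean over the 7 arrays (1 probe set per gene, values printed in the cells, colour capped at -3.5 and 3.5). Lmo2 is positive on the 3 Ahr-KO arrays and WT replicate 1; Gata2 and Tal1 are both highest on WT replicate 3, at 3.28 and 2.81.

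Granulocyte and monocyte markers also differed widely between arrays. All 10 had a higher mean log2 level in Ahr-KO, as did 48.3% of all probe sets tested, and 0 had an unadjusted limma p under 0.05. The count depends on the scale: mean intensity was lower in Ahr-KO for Ngp (208 against 731), Camp (39.2 against 157) and S100a9 (1133 against 1153). On WT replicate 1 Ngp read 0.04 and Camp 0.16. The median log2 difference of the 10 was 1.07, but leaving out Ahr-KO replicate 2 gave 0.37, and leaving out WT replicate 1 or 2 gave 0.097 or 1.71. Their mean log2 level was 7.98, 9.24 and 7.33 for the knockout, beside 4.37, 9.70, 7.89 and 6.80 for the wild type. The array where it was highest, WT replicate 2, had the lowest mean log2 level of the 8 members other than Mecom, 7.74. On the other arrays that level was 8.04, 8.38 and 8.40 for the knockout, beside 8.91, 9.16 and 9.07 for the wild type. Which cells the marker transcripts came from, and any part of such cells in the members' values, was not tested. Without WT replicate 2, Gata2 and Tal1 also had all Ahr-KO values below all WT values, as did 6.22% of all probe sets. In either direction 10.5% then separated. WT replicate 2 was the lowest WT array for both genes, and these shares do not allow for choosing an array by the members' values. The limma differences of Gata2 and Tal1 were then -2.67 and -2.17, with adjusted p no lower than 0.94 for any member. Gata2 also separated in that direction without Ahr-KO replicate 1, its highest knockout array, where 12.6% of all probe sets separated in either direction.

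Proteins that bind the members gave a mixed picture. Of 16 genes for complex partners and cofactors, 15 were measured; 6 had higher and 9 lower values in Ahr-KO, with a median difference of -0.14, and 0 had an adjusted p under 0.05 by limma (1 unadjusted). The median was above 0 without Ahr-KO replicate 3 (0.13) or WT replicate 1 (0.096). Ldb1, the adaptor that holds LMO2 in its complex, stood at 808, 656 and 461 against 696, 458, 1021 and 698, a log2 difference of -0.14 ± 0.48 (SE). The E protein gene Tcf3 stood at 211, 370 and 296 against 1275, 562, 299 and 300, with WT replicate 1 the high array. Cbfb, the RUNX1 partner subunit, differed by 1.14 ± 0.79 (SE), with WT values of 335, 75.9, 57.3 and 416. Cbfa2t3, a corepressor of the TAL1 complex, differed by 0.58 ± 0.79 (SE). Zfpm1, which encodes the GATA cofactor FOG1, had lower values on every Ahr-KO array, at 117, 122 and 80.9 against 297, 221, 205 and 296. That is a log2 difference of -1.25 ± 0.43 (SE), for which limma gave an adjusted p of 0.963. The other partner gene without overlap, named after its values were seen, was the E protein gene Tcf12, at 155, 626 and 140 against 68.7, 67.3, 113 and 117. These 2 of 15 genes are to be read against the 5.74% of all probe sets that separate, and the 1 unadjusted gene against 4.21%.

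Paralogues of the members were mostly dim. Of 14 genes, 13 were measured, 2 stood above the mark on all 7 arrays and 4 on none; 7 had higher and 6 lower values in Ahr-KO. The median difference was 0.089, and below 0 with Ahr-KO replicate 1 (-0.077) or replicate 2 (-0.33), or WT replicate 3 (-0.23), left out. Fli1, the ETS relative of Erg, differed by 0.089 ± 0.72 (SE) and Prdm16, the relative of Mecom, by 0.30 ± 0.47 (SE). Runx3, Gata3 and Lmo4 differed by -0.80, 0.16 and -1.28, each with an SE of 0.61 or more. None had a limma adjusted p under 0.05, and 1 an unadjusted one, Meis2, which stood above the mark on no array. Over all probe sets, 4.21% were under 0.05 unadjusted. Probes shared between relatives were not checked.

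Among 16 other blood transcription factors, all measured, 9 had higher and 7 lower values, with a median of 0.20 that was below 0 without Ahr-KO replicate 2 (-0.034) or WT replicate 2 (-0.017). Myb, required for progenitor expansion, stood at 1216, 2216 and 1600 against 1425, 797, 1418 and 1910. Etv6, Egr1 and Spi1, the gene of the myeloid factor PU.1, differed by 0.27, 0.66 and 0.67. Nfe2, a megakaryocyte and erythroid factor, was at 726, 475 and 507 against 451, 332, 240 and 436 without overlap, a difference of 0.66 ± 0.46 (SE). Cebpb, outside the naming rule and picked after its values were seen, also separated, with a difference of 0.997 ± 0.43 (SE). No gene of this list had a limma adjusted p under 0.05, and 1 an unadjusted one, Nfil3, which stood above the mark on 2 arrays. These counts are to be read against all probe sets, of which 5.74% separate and 4.21% are under 0.05 unadjusted.

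Stem cell surface and target genes likewise gave none past the adjusted threshold and 1 unadjusted (4.21% over all probe sets), among 13 measured of 15. In Ahr-KO 6 had higher and 7 lower values, the median difference being -0.039. The median was above 0 after median centring (0.017) and with any of 5 arrays left out: Ahr-KO replicate 1 (0.079) and replicate 3 (0.63), and WT replicate 1 (0.16), replicate 3 (0.049) and replicate 4 (0.58). The gene under the unadjusted threshold, named after its values were seen, was Slamf1, at 57.4, 78.0 and 236 against 4.56, 23.3, 7.81 and 73.3. Kit, the stem cell factor receptor, stood at 833, 653 and 722 against 747, 1186, 788 and 1258. Cd34 differed by 0.46 ± 0.48 (SE), Angpt1, the ligand of the TIE2 receptor, by -0.090 ± 0.46 (SE) and Itga2b, integrin alpha IIb, by -0.056 ± 0.91 (SE). Hoxa9, whose protein binds DNA with MEIS1, differed by 1.66 ± 1.58 (SE), with 82.7, 700 and 591 against 56.9, 6.55, 385 and 678.

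**Figure D4:**
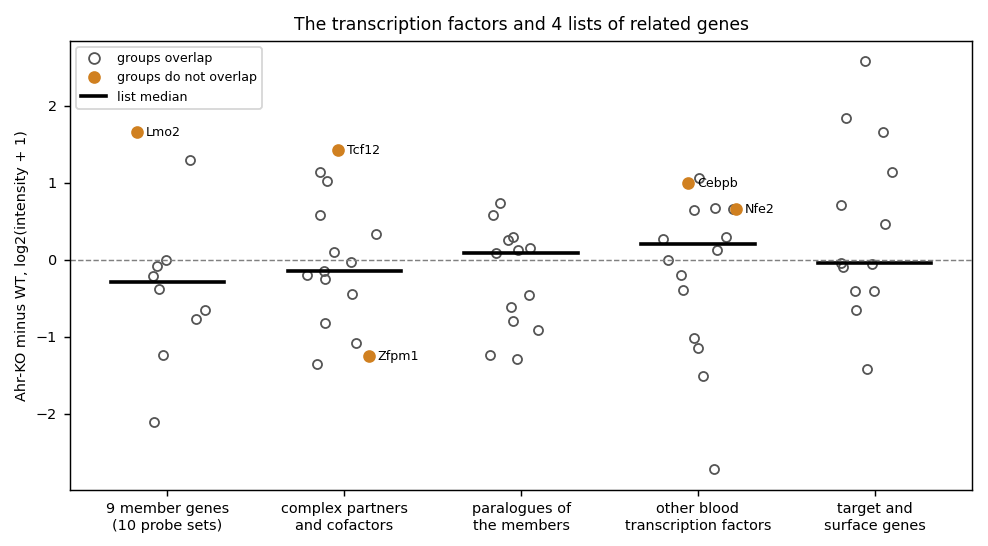
Ahr-KO minus WT on the log2(intensity + 1) scale for the 10 member probe sets and for each measured gene of 4 related lists (1 probe set per gene), with list medians as bars. Filled points, named, are those whose Ahr-KO and WT values do not overlap: Lmo2, Tcf12, Zfpm1, Cebpb and Nfe2, where 5.74% of all probe sets separate.

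The genes outside the list whose values over the 7 arrays were most like the mean deviation of the 9 members were Bzw1, Trim44 and Ubap2l, with Pearson r of 0.959, 0.955 and 0.947. They came from 3237 probe sets above the mark on all arrays, of which 19 had r over 0.9. The WT replicate 2 value of Mecom, listed at 0, weighs heavily in that mean. Bzw1 read 109, 210 and 142 on knockout arrays, beside 212, 75.5, 297 and 197 on wild-type arrays, lowest on WT replicate 2 and highest on WT replicate 3. Its genotype difference was -0.24 ± 0.59 (SE; limma adjusted p = 0.979).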

How the data were processed

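Gene expression was measured on 7 Affymetrix arrays, 3 Ahr-KO and 4 WT. The authors deposited 1 linear intensity per probe set and array; the submitters' processing notes name Affymetrix Expression Console. Its algorithm, background correction and normalization were not given in the sources used here. Arrays have no read depth, so their number limits precision. Of 41155 rows, 25335 had an annotation and 23521 of them 1 gene symbol, updated by Entrez ID through the GRCm38.p6 RefSeq table where it matched (23328).

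Values were taken as log2(intensity + 1) and fitted with limma 3.58.1 (R 4.3.3; lmFit, eBayes, genotype as the only term, two-sided, Benjamini-Hochberg over 25335 probe sets, threshold 0.05). Standard errors are moderated. The script was tested on simulated data. All member probe sets are given. Of each of 4 related gene lists the 5 genes of highest mean level were named, whatever their difference, by the brightest probe set per gene. The members and lists were chosen with earlier results of these data known. Alternatives were each array left out, the replicate block, quantile normalization, median centring, a pseudocount of 16, a filter (above the mark on at least 3 arrays), all rows, array weights and a trended prior.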

Additional observations from a re-analysis of the deposited data

Results flagged for a closer look

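Etv6 (probe set 17463673), an ETS repressor gene, stood at 377 on WT replicate 2 and at 842, 870 and 810 on the other WT arrays. The gap between WT replicate 2 and the nearest WT array was 0.914 of the whole WT range on the log2 scale, above Dixon's 95% critical value for 4 samples. It was the single such case among the 30 member and named probe sets looked at, where chance gives about 1 in 20. No member probe set exceeded that value.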

How the results depend on the processing

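Under the 15 alternatives to the fit, Gata2, Hlf, Meis1, Tal1 and Lmo2 kept their direction and no member or other probe set reached an adjusted p under 0.05. The filter, all rows and the trended prior leave each difference unchanged, and the replicate block repeats the one without WT replicate 4. No single array left out could turn the sign of Lmo2, whose genotypes do not overlap. Leaving out single arrays gave -1.17 to 0.55 and -0.73 to 2.40 for Mecom (17404478 and 17404503), -1.38 to 0.45 for Runx1, -0.24 to 0.097 for Lyl1 and -0.22 to 0.25 for Erg. Erg was -0.10 after quantile normalization and -0.017 with array weights. The causes were not tested.

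Members under 0.05 unadjusted numbered 1 to 3, and members without overlap 1 to 3, when single arrays were left out; without Ahr-KO replicate 3 the one under 0.05 was Meis1 and not Lmo2. Over all probe sets, these fits gave 3.77 to 5.29% unadjusted, and 2349 to 3668 (9.27 to 14.5%) without overlap. Testing fewer rows (the filter) gave 495 unadjusted and 663 without overlap; testing all rows gave 1781 and 2317.

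With the replicate block, where WT replicate 4 drops out, 0 members were under 0.05 unadjusted: Lmo2 no longer was, though its difference was 1.78 against 1.65. Mecom (17404478) and Lyl1 differed by 0.26 and 0.032. Arrays of equal number showed no likeness: same-numbered deviations correlated at 0.023, -0.065 and 0.010, and 0 of 3 Ahr-KO arrays correlated best with the WT array of its own number. The labels do not say whether equal numbers mark a pairing, and correlations over 3 pairs cannot settle it.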

Other observations

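Several genes related to the members, picked after their values were seen, were far brighter on 1 array, of either genotype, than on the rest. They were not confined to it: Gfi1b stood above the mark on all 7 arrays, and Lmo4 and Cpa3 on 4. How many of all probe sets have such a peak was not counted. Gata1, the erythroid and mast cell relative of Gata2, stood at 1299 on WT replicate 2 and at 10.3 to 64.8 on the other 6 arrays. The same array held 1670 for the mast cell protease gene Cpa3, at 15.5 to 95.3 elsewhere, and 1013 for Lmo4, the LIM-only relative of Lmo2, at 2.06 to 215 elsewhere. Gfi1b, a repressor partner of GATA factors, stood at 2344 on WT replicate 1 and at 59.3 to 593 elsewhere. Mcpt8, another mast cell and basophil protease gene, had no such single peak. It stood at 773 on WT replicate 2, at 3.76 on WT replicate 1 and at 348 to 1691 on the other 5 arrays. On Ahr-KO replicate 2, Ldb2 of the partner list stood at 571, and at 4.26 to 21.1 elsewhere. That array also held 296 for Csf1r, of the surface and target list, at 4.74 to 17.2 elsewhere.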
